A study of Homo sapiens with 2 samples.

Results

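The proteasome is the cell's main machine for breaking down proteins tagged with ubiquitin. A barrel-shaped core of 2 outer alpha rings and 2 inner beta rings holds the cutting sites, and a cap of ATPases and receptor subunits binds, unfolds and feeds in the tagged proteins. Immune cells can swap the cutting subunits for immunoproteasome versions, which alter the peptides that reach MHC class I molecules, and B cells carry much immunoproteasome at rest. Other proteins open the core in place of the cap, inhibit it, or help to build it. The 49 genes described here are all those whose symbol is PSM with a letter from A to G and a number, together with POMP, out of 19096 gene symbols in the deposited tables. Each symbol was represented by its transcript row with the highest mean RPKM (reads per kilobase of transcript, set relative to library depth). The 49 genes comprised 14 of the constitutive core, 3 of the immunoproteasome, 2 core subunits known from testis or thymus, 20 of the cap, 4 activators, 1 inhibitor and 5 core assembly factors.

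The cells were P493-6, a human line labelled B-cell lymphoma whose c-Myc transgene is repressed by tetracycline. The high c-Myc group was 1 library from cells taken 24 h after that repression was released, and the low c-Myc group was 1 library taken at 0 h of release. Both came from the same line grown in the same medium, and polyadenylated RNA was sequenced after synthetic RNAs had been added by cell number. With 1 library per group there was no replicate check and no test between conditions, so every difference describes this pair of libraries.

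Depth, read from the spacing of low RPKM values, was about 105500000 reads with high c-Myc and 103200000 with low c-Myc. MYC stood at an RPKM of 2358 with high c-Myc and 836 with low c-Myc, but the values do not separate the transgene from the endogenous gene. All 5 B cell markers given here (MS4A1, CD79A, CD79B, PAX5 and CD22) reached an RPKM of 1 with high and with low c-Myc, with a summed RPKM of 1187 with high c-Myc and 3150.5 with low c-Myc. The 4 T cell markers summed to 1.96 with high c-Myc and 12.5 with low c-Myc. The 4 myeloid markers summed to 24.5 with high c-Myc and 84.1 with low c-Myc. CD3D was at 0 and CD14 and CSF1R were below an RPKM of 0.1 in both. The other markers of these types were detected and had a lower RPKM with high c-Myc. ITGAM stood at an RPKM of 19.5 with high c-Myc and 56.8 with low c-Myc. LYZ stood at 4.91 with high c-Myc and 27.2 with low c-Myc. CD3E, CD3G and CD2 had log2 ratios of high over low c-Myc of -2.14, -2.04 and -1.65. The part of such cells in the differences given here was not tested. Marker RPKM is relative to library depth and not per cell. The synthetic RNAs, added by cell number, stood at -2.56 (median, SD 0.54) on the same log2 scale. No marker had a ratio below that, and LYZ at -2.36 and MS4A1 at -2.23 were the lowest. Set per cell by that value, as described below, no detected marker was thus lower with high c-Myc. The gap for LYZ is smaller than that SD. In bulk RNA, the number of cells of a type and the RNA per cell cannot be told apart.

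Most proteasome genes were expressed, and 37 had log2 ratios above 0 and 10 below 0 as deposited, against 6024 above and 4248 below among all 10272 genes. The split was 31 and 16 on centring, 30 and 17 at the same RPKM sum and 25 and 22 after quantile normalization. On centring 5136 of all 10272 genes lay above 0. The median of all genes was -0.07 at the same RPKM sum and -0.09 after quantile normalization, so less than 50% of them lay above 0 there. A gene was called by size alone, at a log2 ratio of high over low c-Myc of 1 or more, or of -1 or less, on the log2(RPKM + 0.5) scale. Of the 49 genes, 47 had a mean RPKM of at least 1, and 15 of these (31.9%) were at least 2-fold higher with high c-Myc, against 24.9% of all 10272 genes at that level. None was 2-fold lower, against 9.74% of all genes. The median log2 ratio was 0.44 over the proteasome genes (range -0.91 to 3.35) and 0.22 over all genes. Together the genes of the set took 0.905% of the summed RPKM of all genes with high c-Myc and 0.769% with low c-Myc.

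How many proteasome genes were called depended on the scaling, while the genes with the highest ratios stayed. The median log2 ratio of all genes, 0.22 as deposited, was 0 after centring, -0.07 with equal RPKM sums and -0.09 after quantile normalization. Of all genes called, 71.8% were higher as deposited and 57.3%, 53.2% and 50.3% under those scalings. Centring the ratios on the median of all genes left 8 higher and 1 lower, against 19.8% and 14.8% of all genes. Scaling both libraries to the same RPKM sum gave 7 and 2, against 18.2% and 16% of all genes, and quantile normalization gave 6 and 4, against 17.3% and 17.1%. PSMG4, PSMG1, PSMA7, PSMD6, PSMB5 and PSMC3 were the 6 genes at least 2-fold higher under all 11 alternative settings tried for single genes. They had the 6 highest ratios as deposited and so lay furthest above the limit. Some of the 11 settings could not move them. The filters on low values leave a gene's ratio as it is, as do the transcript settings for genes with 1 row. PSMF1, with a log2 ratio of 1.01, stood just inside the limit, and PSMC4, with 0.96, just outside it.

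**Figure D1:**
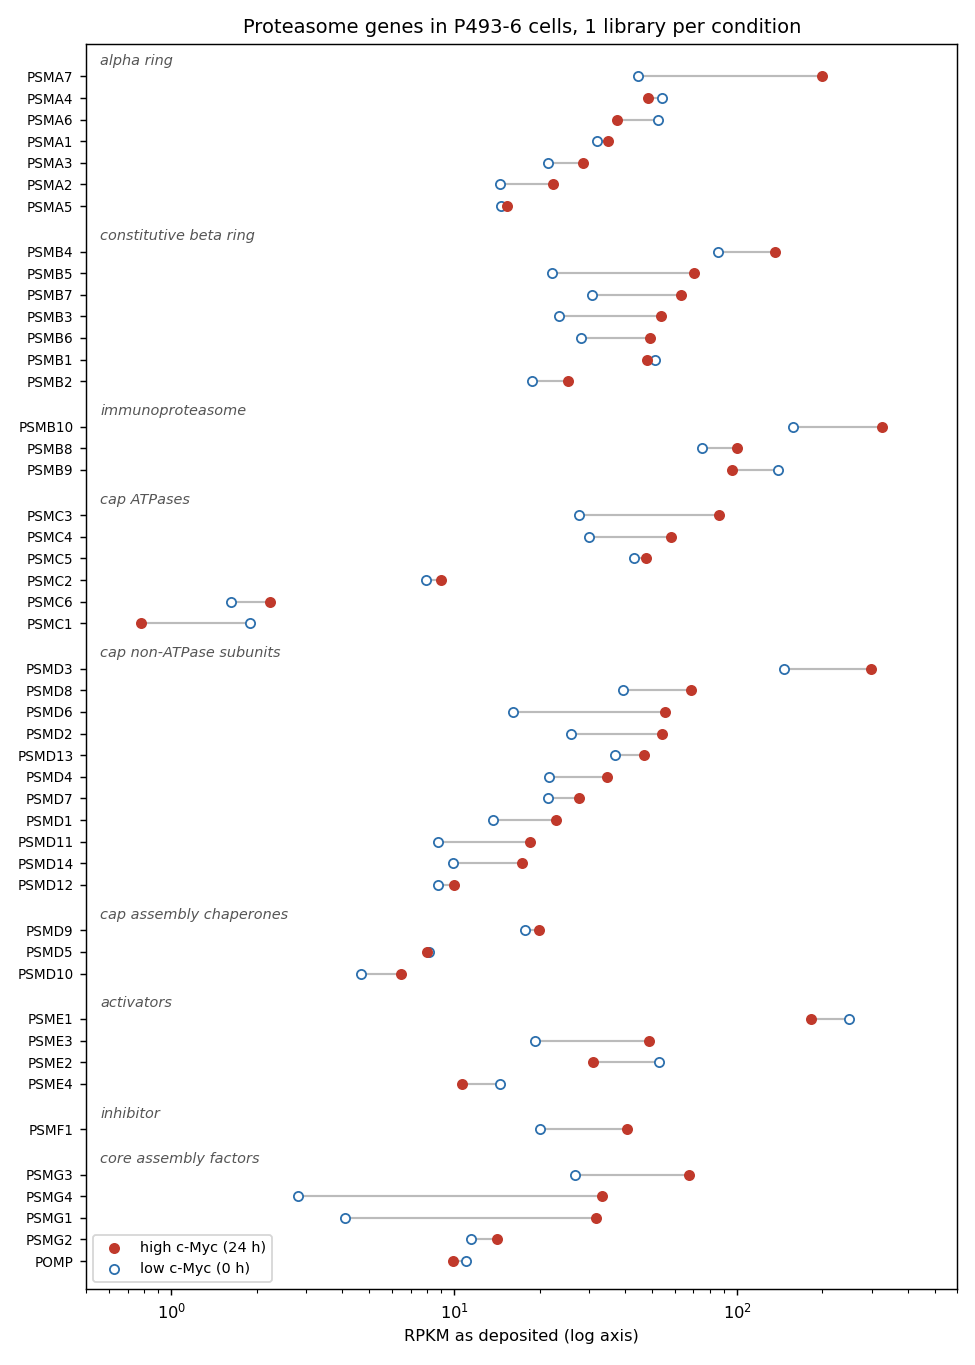
RPKM of the 47 measured proteasome genes on a log axis, grouped by role, with the high c-Myc library as filled red points and the low c-Myc library as open blue points (1 library each). The widest gaps are those of PSMG4 and PSMG1 among the core assembly factors and of PSMA7 in the alpha ring, while PSMB9, PSME1 and PSME2 lie lower in the high c-Myc library.

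The alpha ring closes the core and gates entry to it, and its genes split between 1 gene that was far higher and 6 that lay within 2-fold. PSMA7 stood at an RPKM of 199 with high c-Myc and 44.7 with low c-Myc, a 4.44-fold higher level with a 95% counting interval of 4.30 to 4.59. Folds are ratios of RPKM with nothing added, and such intervals are exact binomial intervals on approximate reads and cover counting error only. PSMA2 and PSMA3 had log2 ratios of 0.61 and 0.41, PSMA1 and PSMA5 ones of 0.13 and 0.06, and PSMA4 one of -0.16. PSMA6 was the lowest, with an RPKM of 37.7 with high c-Myc and 52.3 with low c-Myc, a log2 ratio of -0.47. The ring's median log2 ratio of 0.13 lay below the 0.22 of all genes, and became -0.09 on centring, -0.18 on scaling to the same RPKM sum and -0.38 on quantile normalization. Corrected for transcript GC content it was 0.58 over the 6 genes with a GC value. PSMA6 has 4 named pseudogenes, PSMA2 has 3 and PSMA3 has 1 in the annotation, so reads from near-identical copies make these values uncertain.

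The constitutive beta ring carries the proteolytic sites, and all of its genes but PSMB1 had log2 ratios above 0 as deposited; quantile normalization put PSMB2 below 0 as well. PSMB5, the chymotrypsin-like subunit, stood at an RPKM of 70.3 with high c-Myc and 22.1 with low c-Myc, which is 3.18-fold higher (counting interval 3.03 to 3.35). PSMB3, a structural subunit, stood at 53.9 with high c-Myc and 23.5 with low c-Myc, 2.29-fold higher. PSMB7, the trypsin-like subunit, stood at 63.3 with high c-Myc and 30.8 with low c-Myc, 2.06-fold higher. Neither PSMB3 nor PSMB7 was past 2-fold after centring, where their log2 ratios were 0.96 and 0.81. PSMB6, the caspase-like subunit, had a log2 ratio of 0.80, PSMB4 one of 0.67 and PSMB2 one of 0.41. PSMB1 was lowest, at an RPKM of 47.9 with high c-Myc and 51.2 with low c-Myc. Over the 7 genes the median log2 ratio was 0.80, and it stayed above 0 under every scaling, at 0.16 after quantile normalization.

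Core subunits are built in equal number into each particle, but their transcript levels per length were unequal. Over the 14 constitutive core genes the RPKM ran from 15.3 for PSMA5 to 199 for PSMA7 in the high c-Myc library, and from 14.5 for PSMA2 to 85.4 for PSMB4 in the low one. The SD of the log2 level over these genes was 0.99 with high c-Myc and 0.77 with low c-Myc. In the alpha ring, which holds PSMA7, it was 1.18 with high c-Myc and 0.83 with low c-Myc, whereas in the constitutive beta ring it was 0.73 with high c-Myc and 0.77 with low c-Myc. PSMA7 was the most abundant in the high c-Myc library, whereas PSMB4 led in the low one. The testis subunit PSMA8 had an RPKM of 0.0112 in the high c-Myc library, about 2 reads, and was listed at 0 in the low one. The thymus subunit PSMB11 was listed at 0 in both.

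The 3 immunoproteasome subunits were among the most abundant proteasome transcripts in both libraries, and they did not move together. PSMB10, which takes the place of PSMB7, stood at an RPKM of 324 with high c-Myc and 157 with low c-Myc, 2.06-fold higher (counting interval 2.03 to 2.10). PSMB8, which takes the place of PSMB5, stood at 100.1 with high c-Myc and 74.8 with low c-Myc, 1.34-fold higher (1.30 to 1.38). PSMB9, which takes the place of PSMB6, stood at 95.5 with high c-Myc and 139 with low c-Myc, so that it was lower, with a fold of 0.687 (0.667 to 0.707) and a log2 ratio of -0.54. After a correction for transcript GC content the log2 ratios were 0.57 for PSMB10, 0.29 for PSMB8 and -0.71 for PSMB9, and quantile normalization gave 0.67 for PSMB10, -0.15 for PSMB8 and -1.07 for PSMB9, which put PSMB9 past 2-fold lower and PSMB10 under 2-fold.

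Set against its constitutive counterpart within each library, PSMB8 and PSMB9 made up a smaller part of their pairs in the high c-Myc library. This comparison does not depend on a scaling factor between the libraries. PSMB8 made up 58.8% of the summed RPKM of PSMB8 and PSMB5 with high c-Myc (counting interval 58.0 to 59.5) and 77.2% with low c-Myc (76.3 to 78.0). PSMB9 made up 66.0% of its pair with PSMB6 with high c-Myc (65.2 to 66.8) and 83.2% with low c-Myc (82.6 to 83.8). PSMB10 made up 83.6% of its pair with PSMB7 in both libraries. By the transcript rows used here, all 3 immunoproteasome transcripts thus stayed the more abundant of their pair in both libraries.

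As differences of log2 ratios, immunoproteasome minus constitutive, the pairs stood at -1.23 for PSMB8 and PSMB5, -1.34 for PSMB9 and PSMB6 and 0.01 for PSMB10 and PSMB7. After the GC correction these were -1.33, -1.38 and -0.49. Of the 3 transcript rows of PSMB5, the other 2 gave PSMB8 shares of 66.2% and 67.5% with high c-Myc and 82.2% and 82.9% with low c-Myc, a check chosen after seeing the data. The other PSMB8 transcript with reads stood lower, at an RPKM of 71.6 with high c-Myc and 55.9 with low c-Myc. PSMB5 stood at 70.3 with high c-Myc and 22.1 with low c-Myc, so by that row the pair was nearly even in the high c-Myc library. Each transcript of PSMB8 and PSMB9 was also listed again in rows at 0 in both libraries, 6 rows in all, which were not used. Of the 2 PSMB8 transcripts with reads, the one with the higher mean RPKM was used.

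**Figure D2:**
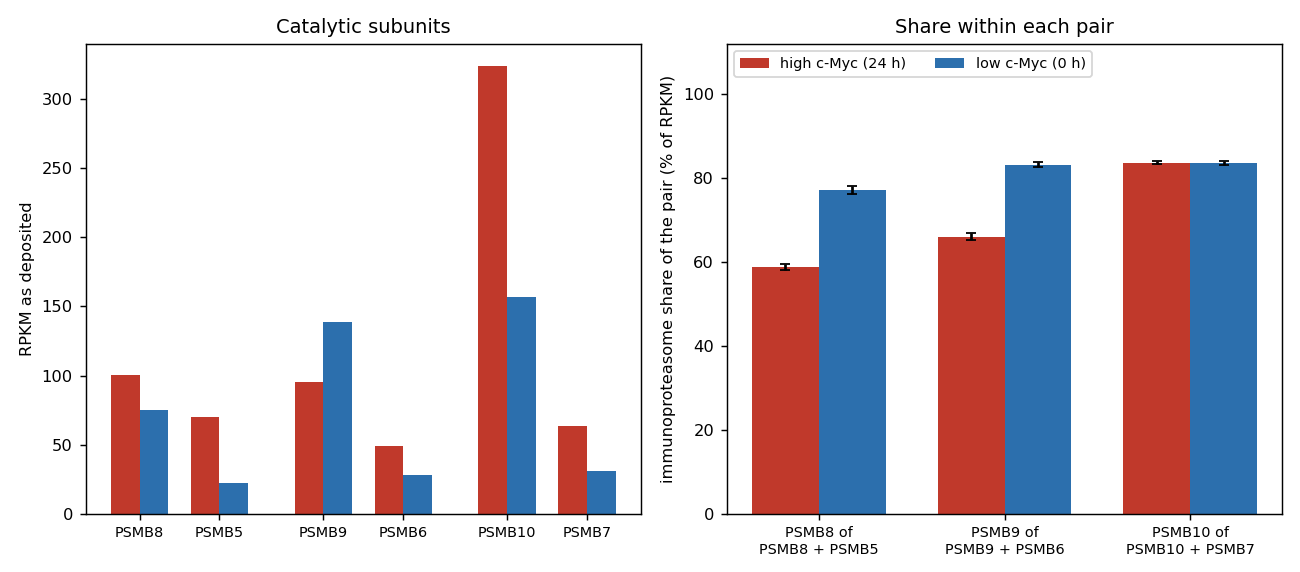
Left, RPKM of each immunoproteasome subunit and the constitutive subunit it replaces, in the high c-Myc library (red) and the low c-Myc library (blue). Right, the immunoproteasome subunit's share of the pair's summed RPKM with 95% counting intervals as error bars, which is 58.8% against 77.2% for PSMB8, 66.0% against 83.2% for PSMB9 and 83.6% in both for PSMB10.

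The cap's non-ATPase subunits, which bind ubiquitin chains, cut them off and hold the cap together, all had log2 ratios above 0 on the deposited scale, though PSMD12 was below 0 on centring and on scaling to the same sum, and 3 genes were on quantile normalization. Of these 11 genes 4 were at least 2-fold higher, and their median log2 ratio was 0.78. PSMD6, a lid subunit, stood at an RPKM of 55.4 with high c-Myc and 16.2 with low c-Myc, 3.43-fold higher (counting interval 3.27 to 3.59). PSMD2, a large scaffold of the base, stood at 54.1 with high c-Myc and 25.8 with low c-Myc, 2.10-fold higher. PSMD11, a lid scaffold, stood at 18.5 with high c-Myc and 8.76 with low c-Myc, 2.11-fold higher. PSMD3, a lid scaffold and the most abundant cap transcript in both libraries, stood at 297 with high c-Myc and 147 with low c-Myc, 2.03-fold higher. These 3 were under 2-fold after centring, and the GC correction left log2 ratios of 0.95 for PSMD2 and 0.69 for PSMD3.

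The other cap subunits of this kind lay between. PSMD14, the enzyme that removes ubiquitin chains, and PSMD8 had log2 ratios of 0.79 and 0.78, PSMD1 had 0.72 and the ubiquitin receptor PSMD4 had 0.67. PSMD7, PSMD13 and PSMD12 were the lowest, at 0.36, 0.33 and 0.18, and were the 3 below 0 after quantile normalization. The 3 chaperones that help to assemble the cap's base were all within 2-fold. Their median of 0.17 was -0.05 on centring, -0.14 on scaling to the same sum and -0.30 on quantile normalization. PSMD10 had a log2 ratio of 0.44, PSMD9 one of 0.17, and PSMD5 stood at an RPKM of 8.01 with high c-Myc and 8.14 with low c-Myc. PSMD5 and PSMA5 were the 2 genes of 46 whose counting interval for the fold held 1.

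The ATPases of the cap, a ring of 6 different subunits that unfolds the substrate, differed most among themselves in level. PSMC3 stood at an RPKM of 86.2 with high c-Myc and 27.6 with low c-Myc, 3.12-fold higher (counting interval 3.02 to 3.23). PSMC4 had a log2 ratio of 0.96, PSMC6 one of 0.36, PSMC2 one of 0.16 and PSMC5 one of 0.14. PSMC1 was the lowest of all 47 genes, with an RPKM of 0.778 with high c-Myc and 1.90 with low c-Myc and a log2 ratio of -0.91, or -1.29 without the added 0.5. PSMC1 has 13 named pseudogenes in the annotation, the highest number of any gene here. PSMC6 was the next lowest ATPase by mean RPKM, at 2.23 with high c-Myc and 1.63 with low c-Myc. The treatment of reads with several matches is unstated in these sources, and the part of the copies was not tested. The ring's median log2 ratio was 0.26, and it was 0.04 on centring, -0.02 on scaling to the same RPKM sum, 0.06 on quantile normalization and 0.74 after the GC correction. PSMC2 and PSMC5 were below 0 under all 3 scalings.

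The activators, which bind the ends of the core, went in both directions. PSME3, which forms a nuclear activator ring of its own, stood at an RPKM of 48.6 with high c-Myc and 19.3 with low c-Myc, 2.52-fold higher (counting interval 2.39 to 2.66). PSME1 and PSME2 form a shared ring that interferon gamma induces, and both were lower. PSME1, the most abundant proteasome transcript of the low c-Myc library, stood at 182 with high c-Myc and 249 with low c-Myc, a fold of 0.733 (0.719 to 0.747). PSME2 stood at 31.0 with high c-Myc and 52.9 with low c-Myc, a fold of 0.586 (0.565 to 0.608). PSME4, a single-chain activator, stood at 10.7 with high c-Myc and 14.5 with low c-Myc, a fold of 0.734. None of these 3 reached 2-fold on the deposited scale, and PSME2 had log2 ratios of -0.76 as deposited, -1.01 after the GC correction and -1.33 after quantile normalization. After the GC correction PSME1 had -0.48 and PSME4 -0.09, and after quantile normalization both had -0.83. PSME3 was under 2-fold after quantile normalization, at 0.72, and at the same RPKM sum. PSME2 has 2 named pseudogenes.

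The inhibitor PSMF1, which binds the core, stood at an RPKM of 40.8 with high c-Myc and 20.1 with low c-Myc, 2.03-fold higher (counting interval 1.98 to 2.09). Its log2 ratio was 0.78 after centring and 1.09 after the GC correction.

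The core assembly factors held the 2 highest ratios of all proteasome genes. PSMG1 to PSMG4 are chaperones that guide the alpha ring together, and POMP then helps the beta subunits to join and mature. PSMG4 stood at an RPKM of 33.2 with high c-Myc and 2.80 with low c-Myc, 11.9-fold higher (counting interval 10.4 to 13.6), and its log2 ratio of 3.35 ranked 130 of 10272 genes. PSMG1 stood at 31.8 with high c-Myc and 4.09 with low c-Myc, 7.76-fold higher (6.97 to 8.65), and ranked 293. PSMG3 stood at 67.5 with high c-Myc and 26.6 with low c-Myc, 2.54-fold higher (2.41 to 2.67), stayed just past 2-fold after the GC correction and had a log2 ratio of 0.71 after quantile normalization.

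The other assembly factors lay within 2-fold. PSMG1 works as a pair with PSMG2, which stood at an RPKM of 14.1 with high c-Myc and 11.4 with low c-Myc, 1.24-fold higher (1.14 to 1.34). The log2 ratio of PSMG2 was 0.30 as deposited, 0.80 after the GC correction, -0.01 at the same RPKM sum and -0.11 after quantile normalization. POMP stood at 9.91 with high c-Myc and 11.0 with low c-Myc, a fold of 0.900 (0.836 to 0.969), which the GC correction turned to a log2 ratio of 0.60. Among the genes with a GC value POMP had the lowest, with a GC content of 34.0%. PSMG3 and PSMG4 form the other pair, and both passed 2-fold as deposited.

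**Figure D3:**
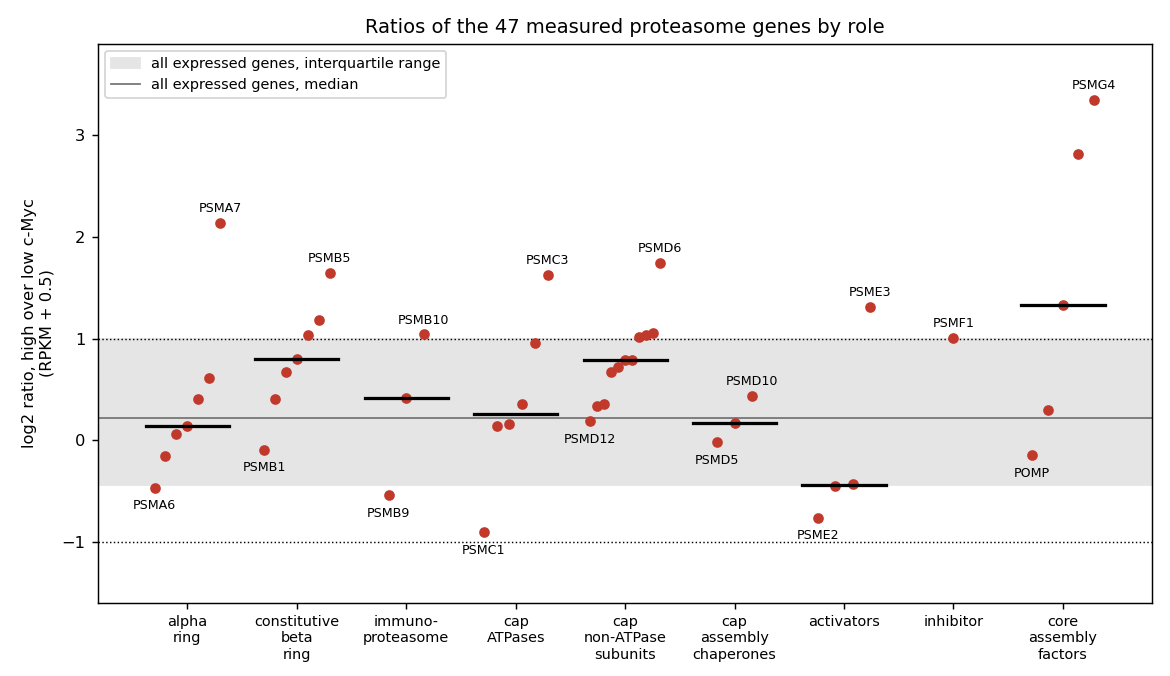
Log2 ratio of high over low c-Myc for each of the 47 measured genes by role, with a black bar at each group's median, dotted lines at 1 and -1, and the median and interquartile range of all 10272 expressed genes in grey. Medians run from -0.44 for the activators to 1.33 for the core assembly factors, and the 11 cap non-ATPase subunits all lie above 0 on this deposited scale (10 of 11 on centring).

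Set against the constitutive core, whose median log2 ratio was 0.51, the cap and the immunoproteasome, with a median of 0.42, were close as deposited. The assembly factors and activators lay further away. The median of the 20 cap genes was higher by 0.05, that of the 5 assembly factors by 0.82 and that of the 4 activators was lower, with a difference of -0.95. The GC correction left 0.03, 0.33 and -0.96, with a median of 0.68 for the core and 0.29 for the immunoproteasome. After quantile normalization the medians were 0.01 for the core, 0.20 for the cap and -0.15 for the immunoproteasome. Those of the assembly factors and activators were then 0.71 and -0.83. The number of genes per group is small, and these are medians over genes and not replicates.

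The assembly factors PSMG4 and PSMG1, which had the highest ratios of their group, were also compared at their promoters with the highest and the lowest activator. Of the 49 genes 43 matched a promoter window in the RefSeq table, from 250 bases before to 50 after the transcript start on GRCh38.p14, and PSMA7, PSMB1, PSMB6, PSMB7, PSMD4 and PSMG3 did not. The stretches below are the 150 bases before the start of the assembly factors PSMG4 (chr6:3258797-3258946, plus strand) and PSMG1 (chr21:39183452-39183601, minus strand), and of the activators PSME3 (chr17:42833247-42833396, plus strand), which was higher, and PSME2 (chr14:24146611-24146760, minus strand), which was lower. They run 5′ to 3′ on the strand of the gene, and capitals mark letters that match a motif searched for.
PSMG4: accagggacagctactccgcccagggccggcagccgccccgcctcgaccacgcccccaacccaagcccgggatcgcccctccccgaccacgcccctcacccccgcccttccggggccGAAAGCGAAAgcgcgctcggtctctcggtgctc
PSMG1: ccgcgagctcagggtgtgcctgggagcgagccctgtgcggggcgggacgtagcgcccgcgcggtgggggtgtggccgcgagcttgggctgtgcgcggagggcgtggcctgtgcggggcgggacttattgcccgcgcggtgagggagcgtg
PSME3: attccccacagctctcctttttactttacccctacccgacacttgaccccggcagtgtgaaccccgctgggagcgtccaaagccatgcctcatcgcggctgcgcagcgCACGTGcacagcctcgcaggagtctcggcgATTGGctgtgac
PSME2: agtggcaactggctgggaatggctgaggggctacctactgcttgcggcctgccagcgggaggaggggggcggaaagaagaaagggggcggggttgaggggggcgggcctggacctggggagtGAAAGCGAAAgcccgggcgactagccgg

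PSME3 carried an E-box, the letters CACGTG to which MYC with MAX is known to bind, at positions -42 to -37 from its start, and an inverted CCAAT box at -12 to -8. The E-box was in the windows of 3 of the 43 proteasome genes (6.98%), PSMB3, PSMD9 and PSME3, against 8.77% of all 27305 genes with a window. Those 3 genes had log2 ratios of 1.18, 0.17 and 1.31. CCAAT, bound by NF-Y, was in 20 of 43 windows (46.5%) against 39.7% of all genes. The core of the antioxidant response element, TGACNNNGC, through which NFE2L1 acts on proteasome genes, was in 15 of 43 (34.9%) against 16.1% of all genes. The 15 genes with it had a median log2 ratio of 0.17 and the other 26 measured genes one of 0.52. Some matches lay upstream of the stretches printed above. PSMG1 carried the antioxidant response element core at -183 to -175 and a CCAAT box at -235 to -231. PSME2 carried the antioxidant response element core at -175 to -167. Both strands were searched, and a match describes letters, not a bound site.

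The core of the interferon-stimulated response element, GAAA repeated after a gap of any 2 bases, was in the windows of 7 of 43 proteasome genes (16.3%) against 4.38% of all genes. In 5 of the 7 the matched letters were the same, GAAAGCGAAA or its reverse complement, a motif that 34 of the 27305 genes hold (0.125%) and that was searched for on its own after the matches had been seen. The sites are shown with 8 bases on each side because genes with the same letters had different ratios. They lie at chr16:67936854-67936879 (PSMB10, minus strand), chr6:32844034-32844059 (PSMB8, minus strand, positions -4 to 6 from a start), chr14:24136191-24136216 (PSME1, plus strand), chr14:24146621-24146646 (PSME2, minus strand) and chr6:3258906-3258931 (PSMG4, plus strand).
PSMB10: gtaaaggcGAAAGCGAAAgcaggaag
PSMB8: tctgtggcTTTCGCTTTCacttcctc
PSME1: cctaccgcTTTCGCTTTCccttcgcg
PSME2: tggggagtGAAAGCGAAAgcccgggc
PSMG4: ccggggccGAAAGCGAAAgcgcgctc

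The 5 genes with this shared element ran from the lower end of the proteasome genes to the top. PSME2 and PSME1 had log2 ratios of -0.76 and -0.45, PSMB8 and PSMB10 ones of 0.42 and 1.04, and PSMG4 one of 3.35. PSMB9, the subunit that was lower, had no match to this motif in its window.

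Ratios of the proteasome genes went with the GC content of their transcripts, as those of all genes did. Across the 46 measured genes with a GC value, log2 ratio and GC content had a Spearman's rho of 0.37 (Pearson's r 0.30), and across all 9948 such genes it was 0.41 (Pearson's r 0.42). Genes are not independent replicates, and all points share the same 2 libraries. After a smooth correction for GC content 13 proteasome genes were at least 2-fold higher and 1 was lower, against 21.4% and 9.13% of all genes under that correction. PSMA2 passed 2-fold in that setting with a log2 ratio of 1.03, and PSMB10, PSMD2 and PSMD3 no longer did.

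**Figure D4:**
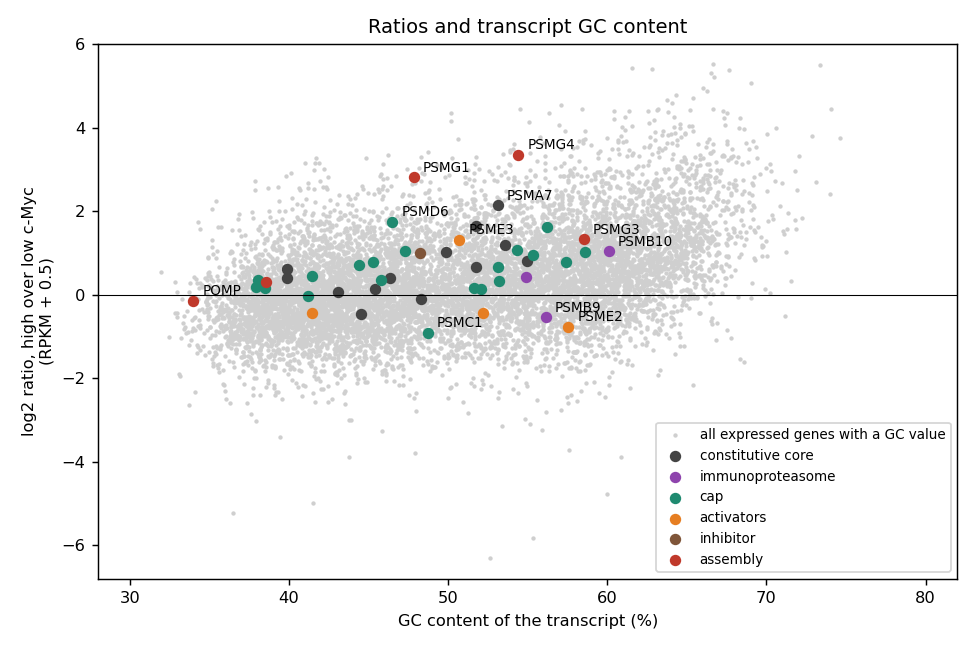
Log2 ratio of high over low c-Myc against transcript GC content (%) for all expressed genes with a GC value (grey) and the 46 measured proteasome genes by group (coloured). PSMG4, PSMG1 and PSMA7 stand high at middle GC contents, whereas PSME2 and PSMB9 lie below 0 at GC contents of 57.5% and 56.1%.

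Measured per cell through the added synthetic RNAs, every proteasome gene was higher in the high c-Myc library, as nearly all genes were. The 46 synthetic RNAs that reached an RPKM of 1 in each library had a median log2 ratio of -2.56 (interquartile range -2.84 to -2.17, SD 0.54), which was subtracted from each gene's ratio. All 47 measured proteasome genes were then at least 2-fold higher, against 97.1% of all genes, and none was 2-fold lower, against 0.0876%. In the authors' own renormalized column, described below, PSMC1 was just under 2-fold higher, at 1.715 with high c-Myc and 0.8605 with low c-Myc. By that column 9244 of the 10272 genes were at least 2-fold higher. The median per-cell log2 ratio was 2.99 over the proteasome genes and 2.78 over all genes. As folds of RPKM, PSMG4 was 69.7-fold and PSMG1 45.6-fold higher per cell, and PSMA7 26.1-fold. At the other end PSMC1 was 2.41-fold higher, PSME2 3.45-fold, PSMB9 4.04-fold and PSME1 4.31-fold. The spread of the synthetic RNAs adds to the error of each of these values alike.

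Genes that work with the proteasome were followed in 5 lists. Of 12 measured proteins that bind the proteasome or ferry substrates to it, 3 were at least 2-fold higher and none lower, with a median log2 ratio of 0.76. That 25% equals, to within rounding, the 24.9% of all genes that were higher, so the count is no result about the list. ADRM1, a ubiquitin receptor of the cap, stood at an RPKM of 231 with high c-Myc and 56.3 with low c-Myc, and its log2 ratio of 2.03 was 0.97 after the GC correction. UCHL5, a deubiquitinase that ADRM1 recruits, had a log2 ratio of 1.53, the shuttle receptor UBQLN4 had 1.19, and RAD23B had the lowest at 0.07. SHFM1, the smallest cap subunit, had a log2 ratio of 0.87. After the GC correction 6 of the 12 were at least 2-fold higher, namely UCHL5 at 1.92, SHFM1 at 1.57, UBQLN2 at 1.23, USP14 at 1.18, PAAF1 at 1.09 and UBQLN4 at 1.02, against 21.4% of all genes.

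Of 5 measured ubiquitin genes and activating enzymes none was 2-fold higher and 1 was lower (median -0.03), against 24.9% and 9.74% of all genes, which also apply to the lists that follow. UBB, a stress-responsive polyubiquitin gene, stood at an RPKM of 24.0 with high c-Myc and 69.2 with low c-Myc, a log2 ratio of -1.51. The activating enzyme UBA1 had the highest at 0.15. Of 9 genes of the VCP segregase, which pulls tagged proteins out of complexes, 1 was higher and none lower around a median of 0.12. FAF1 had a log2 ratio of 1.42 and UBXN7 one of -0.91. After the GC correction 2 of the 9 were higher, near the 21.4% of all genes under that correction, so that count is no result about the list. Ubiquitin genes share near-identical repeats, so their values are uncertain.

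Among 11 transcription factors that act on proteasome genes, with the enzymes that process them, 1 was 2-fold higher and 2 were 2-fold lower (median 0.18). NFE2L1, which raises proteasome genes when proteasome activity falls, stood at an RPKM of 43.7 with high c-Myc and 36.4 with low c-Myc. MAFK, a small MAF partner, had the highest log2 ratio at 2.76, and MAFF, a relative, had -1.01. After the GC correction MAFK had 1.84 and MAFF -1.30. NLRC5, which drives MHC class I and immunoproteasome genes, stood at 32.4 with high c-Myc and 66.6 with low c-Myc, a log2 ratio of -1.03. IRF1, which acts in interferon responses, had -0.27.

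Of 10 genes that trim or carry the peptides the proteasome makes, 2 were 2-fold higher and 1 was 2-fold lower (median -0.35). The cytosolic peptidases THOP1 and BLMH had log2 ratios of 2.75 and 1.75, which were 1.88 and 1.85 after the GC correction. ERAP2, which trims peptides in the endoplasmic reticulum, had the lowest at -1.44, LAP3, an interferon-induced aminopeptidase, had -0.66, and the peptide transporter chains TAP1 and TAP2 had 0.06 and -0.09.

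**Figure D5:**
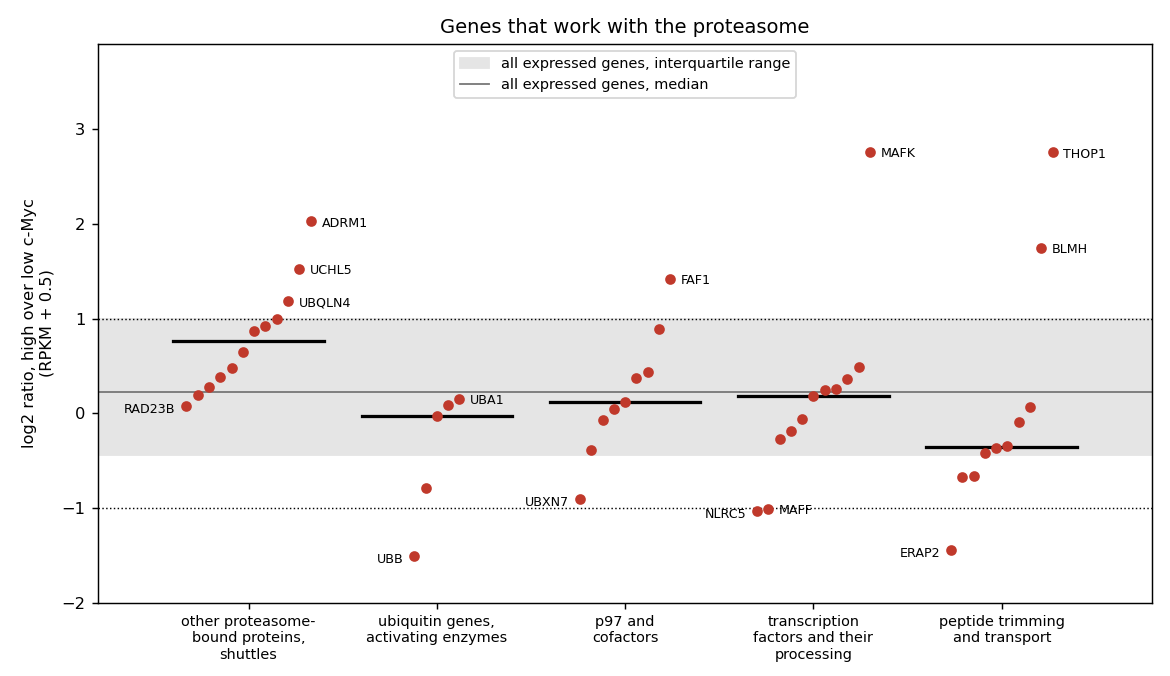
Log2 ratio of high over low c-Myc for the measured genes of 5 lists of proteins that work with the proteasome, with a black bar at each list's median, dotted lines at 1 and -1, and the median and interquartile range of all expressed genes in grey. Medians are 0.76 for proteasome-bound proteins and shuttles, -0.03 for ubiquitin genes and activating enzymes, 0.12 for the VCP list, 0.18 for the transcription factor list and -0.35 for peptide trimming and transport.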

How the data were processed

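The submitters' processing notes name Bowtie, without a version, and genome build hg18. The authors deposited 1 table of RPKM values per library, per the file headers, and a renormalized column with a score relative to the synthetic RNAs, made by the authors in a way not given in the sources used here. The use of strand, the filters and the treatment of reads with several matches are not given there either, so reads of overlapping or near-identical genes cannot be told apart. Each symbol kept its row with the highest mean RPKM, genes with a mean RPKM of at least 1 were measured, and ratios were taken on log2(RPKM + 0.5), a scale that understates differences of weakly expressed genes. Approximate reads were RPKM times transcript length (GENCODE release 29, paired by accession) times the depth at which low values fell most often on whole reads. With high c-Myc, 46.4% of 2234 transcripts with up to 20 reads came within 0.05 of whole reads, and with low c-Myc 48.8% of 3134, where chance gives 10%. Those lengths are not the authors' own, so reads are approximate. The GC correction subtracted a lowess fit (fraction 0.3) over the 9948 measured genes with a GC value. Every gene of the set is named, with full values for exchangeable catalytic subunits, activators, assembly factors, PSMF1, genes past 2-fold and the highest and lowest of each ring or cap class; lists are given by counts, median and extremes, and further list genes were picked after their values were seen. Of the gene lists and markers, 4 genes are not reported here and enter none of their counts, sums or medians. The members, gene lists and settings were chosen with earlier results of these data known. No count model was fitted to these RPKM, and with single libraries there are no p-values. The depth estimate, the 2-fold calls and the counting intervals were tested on simulated data. The simulation used the same transcript lengths to make and to read its values, so it does not cover errors in length. The other steps were not tested in this way. Software was statsmodels 0.14.6, scipy 1.17.1, numpy 2.4.6, pandas 2.3.3 and matplotlib 3.10.9 under Python 3.11.15.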

Additional observations from a re-analysis of the deposited data

Results flagged for a closer look

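The testis subunit PSMA8 was listed at 4.15 in the authors' deposited renormalized column of the high c-Myc library and at 2.56e-09 in that of the low c-Myc library. Its RPKM was 0.0112 with high c-Myc and 0 with low c-Myc. It drew attention as a signal, above its level in the low c-Myc library, in a column used above for no single gene but PSMC1. Over the 47 measured proteasome genes the renormalized value was between 2.15 and 2.34 times the RPKM in the high c-Myc library and between 0.427 and 0.465 times in the low one, whereas for PSMA8 it was 371 times in the high c-Myc library. PSMB11 was listed at 0.0075 in that column of the high c-Myc library, where its RPKM was 0. The column thus also holds values where the RPKM shows no reads.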

How the results depend on the processing

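No paired analysis was possible because each group held 1 library, and for the same reason none could be left out. The 15 genes at least 2-fold higher became 8 on centring, 7 on scaling to the same RPKM sum and 6 on quantile normalization, and were 13 to 15 under the pseudocount, filter, transcript and GC settings. The count of lower genes, 0 as reported, was 1 with a pseudocount of 0.1, with none, after the GC correction and on centring, 2 on scaling to the same sum and 4 on quantile normalization. The median log2 ratio of 0.44 was 0.22 on centring, 0.14 at the same sum, 0.12 after quantile normalization, 0.61 with a mean RPKM of at least 5 and 0.68 after the GC correction. It was 0.67 without the 12 members that have a named pseudogene, a setting added after seeing the data. The median per cell of 2.99 was 3.16 with that filter, 3.24 after the GC correction and 2.75 in the authors' renormalized column. The GC correction also moved the median difference between immunoproteasome and constitutive subunits to -1.33 and the gap between assembly factors and core to 0.33, and the filter moved the gap between cap and core to 0.19. The scalings shift all genes of a library alike or by level, and the cause of the other moves was not tested. None of the 15 called genes fell below 0 in any setting. They were picked for log2 ratios of at least 1 in these same libraries, so this is no separate check. Counting error was small, with a median half-width of 0.06 on the log2 scale, and 1 library per group sets the larger limit.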

Other observations

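Transcript rows of the same proteasome gene mostly gave the same ratio. Of the 49 genes, 21 had more than 1 row with a mean RPKM of at least 1, and the range of log2 ratios within a gene had a median of 0.03 and a maximum of 0.49. PSMA1 was the widest, with log2 ratios from -0.30 to 0.19 over its 3 rows, and PSMA4, from -0.16 to 0.06 over 3 rows, was the other gene whose rows lay on both sides of 0. The 3 rows of PSMG4 ran from 3.33 to 3.49 and the 3 of PSMB5 from 1.61 to 1.65. Rows of 1 gene share most of their reads, so this is no replicate check.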
